A study of Mus musculus with 16 samples.

Results

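The genes described here are 8 transcripts of mouse retina that were among the most reduced when the optic nerve had been crushed 3 days earlier, an injury that damages the axons of retinal ganglion cells on their way from the eye to the brain. They are Htr1b, Ano3, Trarg1, Rasgrp2, Itpka, Ppp1r1c, Hapln1 and Irx4, taken from the 36528 gene entries of the deposited files. They were chosen by name for a large loss after crush, from outside the usual sets of ganglion cell markers. Their crushed and uncrushed levels therefore chose them, and those levels are given as a description without a test. All 8 passed the filter on low counts, as did 19391 genes in all.

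Poly(A) RNA was sequenced from 16 retinas in 4 groups. The crushed DLKi group (n = 5) and the uncrushed DLKi group (n = 5) came from mice dosed with GNE-3511, which inhibits the dual leucine zipper kinase (DLK), at 75 mg/kg at 60 and 68 h after injury. The crushed vehicle group (n = 3) and the uncrushed vehicle group (n = 3) came from mice given the MCT vehicle. The labels give no strain, age, sex or genotype, state 5 mice per drug and do not say which retinas share a mouse, so each p-value here reflects spread among these samples, which may share animals. Other vehicle retinas were not analysed here.

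After the optic nerve is damaged, ganglion cells shut down many of the genes that mark their mature state, and some of the cells later die. DLK is a kinase of the axon injury response that passes the damage signal to the JNK and c-Jun pathway in the cell body. The whole retina was sequenced, so fewer ganglion cells and less RNA per ganglion cell cannot be told apart.

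The 8 proteins have different roles. Htr1b encodes a serotonin receptor coupled to the inhibitory G protein and found on axon terminals. Ano3 encodes an anoctamin, a membrane protein of the family of calcium-activated chloride channels and lipid scramblases. Trarg1 encodes a membrane protein that regulates traffic of the glucose transporter GLUT4 in fat and muscle. Rasgrp2 encodes a calcium- and diacylglycerol-regulated exchange factor that activates the GTPase Rap1. Itpka encodes a neuronal kinase that phosphorylates inositol trisphosphate, the messenger that releases calcium from stores. Ppp1r1c encodes an inhibitor of protein phosphatase 1. Hapln1 encodes a link protein that ties proteoglycans to hyaluronan in the matrix around neurons, and Irx4 encodes a transcription factor of the Iroquois homeobox family.

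The sequences just before the annotated starts of these genes are shown to give their makeup. RefSeq windows of 250 bases upstream of the start (GRCm38.p6) matched 7 of the 8 genes, all except Trarg1, in 9 windows. They ranged from 2 to 31 CpG dinucleotides, against a median of 6 over 32851 windows of 27025 genes. Their GC content ran from 42% to 79.6%, against a median of 52.4% and quartiles of 45.2% and 61.2% over all windows. A CpG-poor pair and a CpG-rich pair are shown 5′ to 3′ on the strand of each gene, with every CpG in capitals.
Ppp1r1c, chr2:79707530-79707779, plus strand: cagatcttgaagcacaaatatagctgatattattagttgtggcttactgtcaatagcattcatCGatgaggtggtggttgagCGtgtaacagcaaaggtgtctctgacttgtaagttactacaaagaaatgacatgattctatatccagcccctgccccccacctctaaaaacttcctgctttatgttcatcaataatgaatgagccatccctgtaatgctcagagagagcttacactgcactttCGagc
Hapln1, chr13:89540386-89540635, plus strand: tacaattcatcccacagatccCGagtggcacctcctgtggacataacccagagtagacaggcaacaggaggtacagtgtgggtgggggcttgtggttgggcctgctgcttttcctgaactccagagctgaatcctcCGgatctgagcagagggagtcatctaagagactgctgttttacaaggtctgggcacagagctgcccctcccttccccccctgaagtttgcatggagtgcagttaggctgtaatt
Irx4, chr13:73260247-73260496, plus strand: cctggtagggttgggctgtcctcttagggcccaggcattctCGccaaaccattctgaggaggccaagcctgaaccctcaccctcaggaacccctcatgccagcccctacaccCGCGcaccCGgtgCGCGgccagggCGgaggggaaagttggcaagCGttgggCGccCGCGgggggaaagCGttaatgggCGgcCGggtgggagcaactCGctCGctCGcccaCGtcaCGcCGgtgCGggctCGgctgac
Itpka, chr2:119742087-119742336, plus strand: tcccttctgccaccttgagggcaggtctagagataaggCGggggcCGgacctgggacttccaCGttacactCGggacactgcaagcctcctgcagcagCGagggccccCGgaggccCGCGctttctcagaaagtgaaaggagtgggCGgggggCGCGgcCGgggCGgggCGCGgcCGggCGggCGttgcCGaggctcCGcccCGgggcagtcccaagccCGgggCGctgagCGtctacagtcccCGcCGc

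The windows of Ppp1r1c and Hapln1 held 3 and 2 CpG, whereas those of Irx4 and Itpka held 22 and 26. Genes with CpG-poor and CpG-rich starts were therefore both present among the 8. The GC box GGGCGG, searched on both strands, occurred in 4 of the 9 windows, 1 of Irx4, 1 of Itpka and 2 of Rasgrp2, and in 32.7% of all windows. Neither the cyclic AMP response element TGACGTCA (1.55% of all windows) nor the AP-1 element TGANTCA (6.75%) nor the homeodomain core TAATTA (4.84%) occurred in any of the 9, searched on both strands. The windows of Irx4, Hapln1, Rasgrp2 and Ano3 precede RefSeq starts that lie within the gene spans given below, so part or all of each falls inside the span. Such matches describe the letters of the windows and no more.

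Levels are given as nRPKM, the authors' RPKM (reads per kilobase of gene, scaled for depth) adjusted by a size factor, which allows comparison between genes. Sequencing depth was 22.35 to 44.75 M counted reads per library. Trarg1 was the most abundant of the 8 in every group and Ppp1r1c the least. In uncrushed retinas Trarg1 averaged 15.4 ± 2.13 nRPKM with DLKi and 12 ± 3.46 nRPKM with vehicle (SD, n = 5 and n = 3). Ppp1r1c averaged 0.328 ± 0.0521 nRPKM with DLKi and 0.268 ± 0.0406 nRPKM with vehicle (SD, n = 5 and n = 3). In uncrushed vehicle retinas the other 6 lay between, in the order Rasgrp2, Htr1b, Ano3, Irx4, Itpka and Hapln1, and the ranges of Rasgrp2 and Htr1b, of Htr1b and Ano3, of Ano3 and Irx4, and of Itpka and Hapln1 overlapped.

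**Figure D1:**
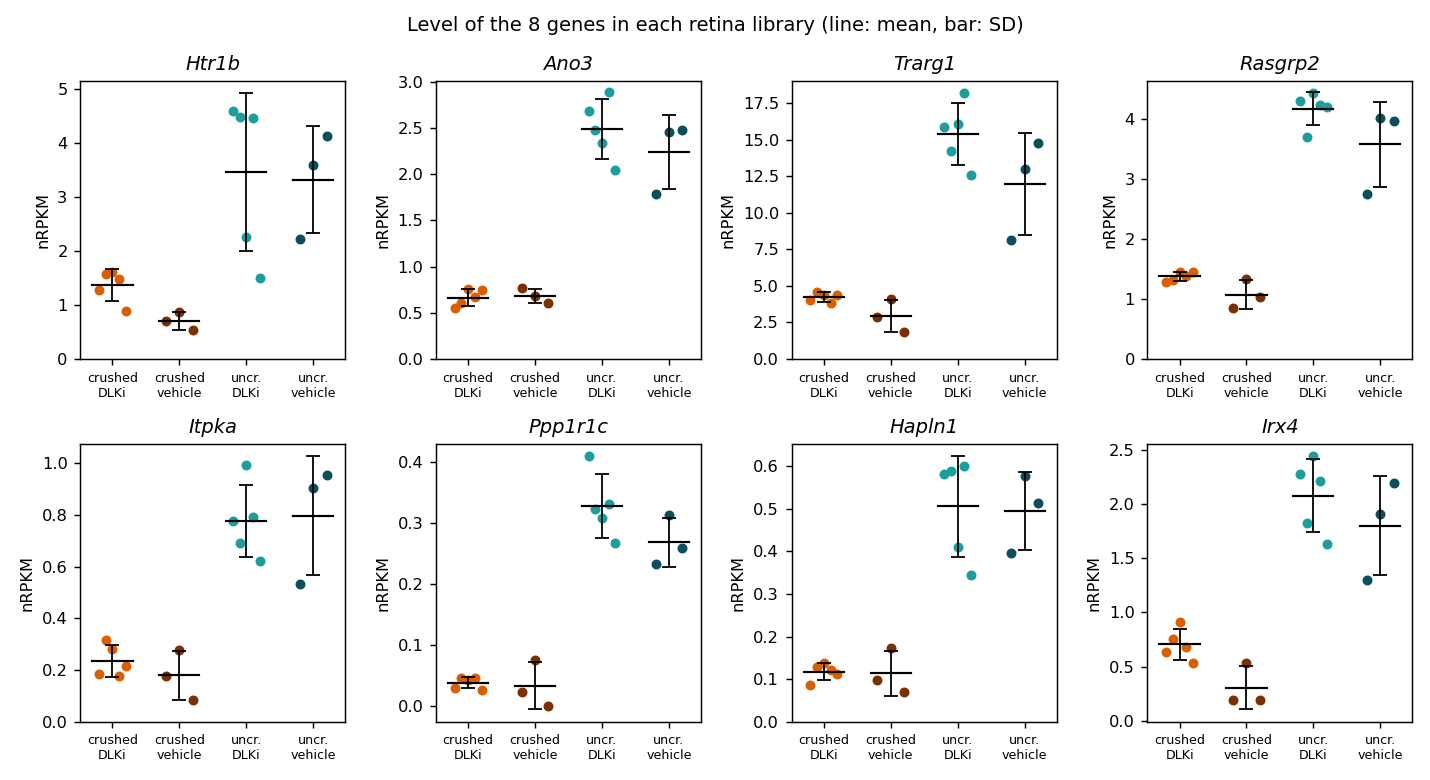
Level of each of the 8 genes in nRPKM (y axis, linear, 1 panel per gene) in the crushed DLKi, crushed vehicle, uncrushed DLKi and uncrushed vehicle retinas, with 1 point per library, the mean as a line and the SD as a bar. The crushed points lie below the uncrushed points of the same treatment for all genes except Htr1b, whose highest crushed DLKi retina (1.62) exceeds its lowest uncrushed DLKi retina (1.51).

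The receptor gene Htr1b (entry 15551, chr9:81628291-81633832, minus strand, GRCm38) measured 1.27, 1.58, 1.62, 1.49 and 0.886 nRPKM in crushed DLKi retinas, against 4.60, 4.49, 2.26, 4.46 and 1.51 nRPKM in uncrushed DLKi retinas. With vehicle it measured 0.708, 0.868 and 0.542 nRPKM in crushed retinas, against 2.22, 3.60 and 4.14 nRPKM in uncrushed retinas. Crushed levels averaged 39.6% of uncrushed levels with DLKi and 21.3% with vehicle. The groups overlapped with DLKi, where uncrushed DLKi replicates 3 and 5 lay near the crushed range, and did not overlap with vehicle. The log2 change, crushed over uncrushed, was -1.34 ± 0.28 with DLKi and -2.22 ± 0.39 with vehicle (SE). Lens marker transcripts summed to 327 and 540 nRPKM in those 2 uncrushed DLKi retinas and to 13.4, 93.5 and 42.0 nRPKM in replicates 1, 2 and 4, and the part of lens tissue in the low values was not tested. Without the 3 lens-rich libraries, these 2 and uncrushed vehicle replicate 2, the change of Htr1b was -1.71 with DLKi and -2.17 with vehicle.

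Of the exon bases of Htr1b, 18% overlap an antisense gene, D430036J16Rik, and the library kit does not mark strand, so reads there cannot be assigned to one of them. D430036J16Rik itself measured 0.796, 1.02, 0.957, 0.848 and 0.630 nRPKM in crushed DLKi retinas, against 2.01, 1.96, 1.07, 1.68 and 0.916 nRPKM in uncrushed DLKi retinas. With vehicle it measured 0.550, 0.556 and 0.411 nRPKM in crushed retinas, against 1.02, 1.73 and 2.05 nRPKM in uncrushed retinas. Its values were low in the same uncrushed retinas as those of Htr1b, DLKi replicates 3 and 5 and vehicle replicate 1. Reads from the shared bases may enter the values of both genes, so this likeness is not independent.

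The anoctamin gene Ano3 (entry 228432, chr2:110655201-110950391, minus strand) measured 0.548, 0.602, 0.757, 0.666 and 0.749 nRPKM in crushed DLKi retinas, against 2.68, 2.48, 2.34, 2.89 and 2.04 nRPKM in uncrushed DLKi retinas. With vehicle it stood at 0.763, 0.683 and 0.611 nRPKM in crushed retinas, against 1.78, 2.46 and 2.48 nRPKM in uncrushed retinas. No crushed retina reached an uncrushed one, and the crushed retinas of both treatments covered nearly the same range. Its log2 change was -1.90 ± 0.12 with DLKi and -1.71 ± 0.16 with vehicle (SE). The gene had the smallest relative spread in crushed vehicle retinas, with a coefficient of variation of 11.1%, and at least 122 reads in every library.

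Trarg1 (entry 237858, chr11:76679873-76698664, plus strand) measured 4.01, 4.60, 4.41, 3.82 and 4.36 nRPKM in crushed DLKi retinas, against 15.9, 14.2, 16.1, 18.2 and 12.6 nRPKM in uncrushed DLKi retinas. In vehicle mice the crushed retinas gave 2.85, 4.09 and 1.87 nRPKM, against 8.11, 13.0 and 14.8 nRPKM in uncrushed retinas. Crushed and uncrushed values were well apart with both treatments, and the log2 change was -1.86 ± 0.17 with DLKi and -2.02 ± 0.23 with vehicle (SE). Trarg1 is best known from fat and muscle. Summed markers of skeletal muscle ranged from 4.59 to 6.05 nRPKM in crushed retinas and from 4.19 to 6.07 nRPKM in uncrushed retinas, and those of adipocytes from 1.83 to 5.28 and from 2.80 to 5.87 nRPKM. Of the 7 muscle markers 3 passed the filter, and of the 6 adipocyte markers 2 passed. After crush with either treatment, 0 of these 5 were called in edgeR, DESeq2 or limma, or had an unadjusted edgeR p under 0.05. Of all genes, edgeR called 5.33% with DLKi and 2.63% with vehicle, DESeq2 6.79% and 3.71%, and limma 4.7% and 2.46%. An unadjusted edgeR p under 0.05 was found for 14.4% and 10.4%. So few markers cannot be told apart from these shares, and the part of such tissue was not tested.

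The exchange factor gene Rasgrp2 (entry 19395, chr19:6398957-6415216, plus strand) measured 1.29, 1.32, 1.46, 1.38 and 1.46 nRPKM in crushed DLKi retinas, against 4.30, 3.71, 4.44, 4.24 and 4.21 nRPKM in uncrushed DLKi retinas. In vehicle mice it measured 0.858, 1.34 and 1.03 nRPKM in crushed retinas, against 2.76, 4.02 and 3.97 nRPKM in uncrushed retinas. Both crushed groups lay far below their uncrushed groups, with log2 changes of -1.59 ± 0.11 with DLKi and -1.73 ± 0.15 with vehicle (SE). The protein is abundant in platelets. The summed blood and platelet markers ranged from 5.14 to 15.2 nRPKM in crushed retinas and from 6.03 to 16.3 nRPKM in uncrushed retinas, and 0 of the 5 that passed the filter were called after crush in edgeR, DESeq2 or limma. At an unadjusted edgeR p under 0.05 there was 1 with DLKi and 0 with vehicle, beside 14.4% and 10.4% of all genes. Of all genes, edgeR called 5.33% with DLKi and 2.63% with vehicle, DESeq2 6.79% and 3.71%, and limma 4.7% and 2.46%. A list of 5 is too short to be told apart from these shares, and the part of blood in the fall of Rasgrp2 was not tested.

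The kinase gene Itpka (entry 228550, chr2:119742337-119751253, plus strand) was a low-count gene, with 5 to 26 reads per crushed library. It measured 0.186, 0.315, 0.281, 0.175 and 0.216 nRPKM in crushed DLKi retinas, against 0.778, 0.692, 0.993, 0.790 and 0.623 nRPKM in uncrushed DLKi retinas. Vehicle mice gave 0.175, 0.277 and 0.0851 nRPKM in crushed retinas, against 0.533, 0.903 and 0.956 nRPKM in uncrushed retinas. The groups did not overlap with either treatment. Its log2 change was -1.71 ± 0.24 with DLKi and -2.11 ± 0.33 with vehicle (SE).

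Ppp1r1c (entry 75276, chr2:79707780-79818546, plus strand), the phosphatase inhibitor gene with the CpG-poor window, was the lowest in level and had the largest loss of the 8 with both treatments. It measured 0.0290, 0.0452, 0.0417, 0.0461 and 0.0262 nRPKM in crushed DLKi retinas, from 7 to 12 reads, against 0.410, 0.323, 0.309, 0.332 and 0.267 nRPKM in uncrushed DLKi retinas. In vehicle mice it measured 0.0227, 0.0749 and 0 nRPKM in crushed retinas, from 5, 20 and 0 reads, against 0.233, 0.313 and 0.259 nRPKM in uncrushed retinas. The 0 allows a level of up to 0.0159 nRPKM, worth 3 reads, which covers counting error only. Crushed levels averaged 11.5% of uncrushed levels with DLKi and 12.1% with vehicle, without overlap. The log2 change was -3.11 ± 0.34 with DLKi and -2.90 ± 0.45 with vehicle (SE), and the vehicle value was -4.43 without crushed vehicle replicate 2.

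The matrix link protein gene Hapln1 (entry 12950, chr13:89540529-89611832, plus strand), the second gene with a CpG-poor window, measured 0.0854, 0.128, 0.137, 0.122 and 0.113 nRPKM in crushed DLKi retinas, against 0.582, 0.588, 0.410, 0.601 and 0.345 nRPKM in uncrushed DLKi retinas. In vehicle mice the crushed retinas held 0.0990, 0.173 and 0.0707 nRPKM, against 0.395, 0.576 and 0.513 nRPKM in uncrushed retinas. Its remaining level, 23.2% with DLKi and 23.1% with vehicle, was nearly equal between treatments, and the log2 changes were -2.10 ± 0.22 with DLKi and -2.08 ± 0.29 with vehicle (SE). Uncrushed DLKi replicates 3 and 5, the retinas with most lens transcripts, were its lowest uncrushed DLKi values.

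The transcription factor gene Irx4 (entry 50916, chr13:73259589-73269622, plus strand), with 22 CpG in its window, measured 0.638, 0.757, 0.910, 0.686 and 0.534 nRPKM in crushed DLKi retinas, against 2.28, 1.83, 2.44, 2.21 and 1.63 nRPKM in uncrushed DLKi retinas. In vehicle mice it measured 0.189, 0.535 and 0.196 nRPKM in crushed retinas, against 1.30, 1.91 and 2.19 nRPKM in uncrushed retinas. Crushed levels averaged 33.9% of uncrushed levels with DLKi and 17% with vehicle. The log2 change was -1.56 ± 0.22 with DLKi and -2.52 ± 0.31 with vehicle (SE), and the vehicle value was -3.24 without crushed vehicle replicate 2.

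Over the 8 genes, the median log2 change after crush was -1.78 with DLKi and -2.10 with vehicle, beside -0.001 and -0.003 over all genes tested. Crushed values lay wholly below uncrushed values for 7 of 8 genes with DLKi, where 3.3% of all genes tested did so, and for 8 of 8 with vehicle, where 4.75% did so. Across both treatments at once this held for 7 of 8, with 0.639% of all genes as background. The choice of the genes used these values, so nothing is read from the counts. Genes called lower after crush (a Benjamini-Hochberg adjusted p of 0.05 or less in edgeR's quasi-likelihood test) were ranked by size of fall. The ranking kept genes averaging 1 CPM (counts scaled to library size) or more, and left out unmatched entries and Gm, Rik or LOC names. In it the 8 held ranks between 6 and 29 of 340 with DLKi, and between 2 and 12 of 133 with vehicle. With DLKi, lens crystallin genes came first, led by Cryaa at -4.52. With vehicle, the last of the 8 by size of fall was Ano3 at -1.71, followed by Isl2 at -1.70, a ganglion cell transcription factor that is not among the 8. Pvalb, Pou4f2 and Ctxn3 lay within that span with vehicle, and Scn4b, at rank 1 (-3.24), above it, and they are not among the 8 either. The choice left out the usual ganglion cell markers, so the absence of Isl2 and Pou4f2 from the 8 is not a result.

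**Figure D2:**
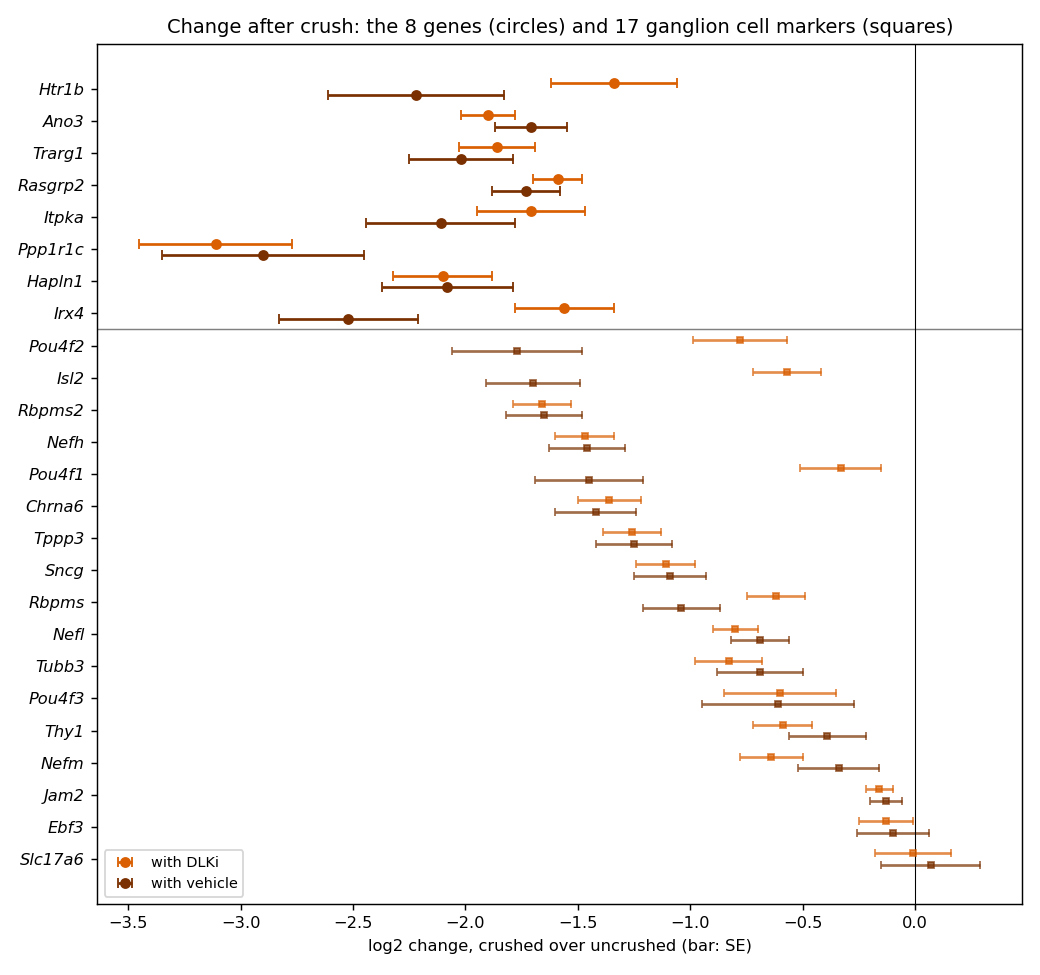
Log2 change, crushed over uncrushed (x axis), with its SE as a bar, for the 8 genes (circles, above the line) and 17 ganglion cell markers (squares, below it), with DLKi and with vehicle. The 8 genes run from -3.11 to -1.34 with DLKi and from -2.90 to -1.71 with vehicle, and the markers reach -1.66 with DLKi and -1.77 with vehicle.

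Of 17 ganglion cell markers, 12 fell after crush with DLKi (median of all 17 -0.64, against 2.04% of all genes called lower) and 10 fell with vehicle (median -1.04, against 0.861% of all genes). Their summed level in crushed retinas was 58.1% of that in uncrushed retinas with DLKi and 62.2% with vehicle. The most abundant markers weigh most in that sum, unlike in the median, which orders the 2 treatments the other way. Nor is the sum the same measure as the share left for a single gene. Taken one by one, the 8 genes stood at 11.5% to 39.6% with DLKi and 12.1% to 30.6% with vehicle, for which they were chosen. Single markers reached into the 8 genes' range, such as Rbpms2 at -1.66 with DLKi and Pou4f2 at -1.77 with vehicle (log2). Markers of amacrine, bipolar, rod, cone, Müller and endothelial cells gave 0 calls of 43 in edgeR after crush with either treatment. At an unadjusted p under 0.05 there were 3 with DLKi, beside 14.4% of all genes, and 6 with vehicle, beside 10.4%. DESeq2 called 2 with DLKi and 1 with vehicle (6.79% and 3.71% of all genes), and limma 0 and 0 (4.7% and 2.46%). Of 4 horizontal cell markers, Calb1, the gene of the calcium buffer calbindin, fell with DLKi (-0.37 ± 0.08, SE, edgeR adjusted p = 0.0103) and measured -0.40 ± 0.11 with vehicle (adjusted p = 0.0566 in edgeR and 0.0134 in DESeq2). The other 3 were not called. Lhx1, Onecut1 and Onecut2 measured 0.04 ± 0.12, 0.07 ± 0.21 and 0.03 ± 0.11 with DLKi (SE). With vehicle they measured -0.05 ± 0.16, -0.12 ± 0.28 and 0.25 ± 0.14. The horizontal markers summed to 22.1 to 23.7 nRPKM in crushed DLKi and 25.4 to 31.3 nRPKM in uncrushed DLKi retinas, without overlap, and to 16 to 20.5 nRPKM in crushed vehicle and 19.8 to 26.3 nRPKM in uncrushed vehicle retinas. The part of these cells in the falls of the 8 genes was not tested. Rod markers, which define the tissue as retina, summed to between 13253 and 15398 nRPKM in crushed retinas and between 13367 and 16614 nRPKM in uncrushed retinas. Microglial markers rose, 9 of 10 with DLKi and 5 of 10 with vehicle, beside 3.29% and 1.77% of all genes called higher. Lens markers fell with DLKi for 9 of 12 in edgeR, 11 of 12 in DESeq2 and 1 of 12 in limma, and with vehicle for 0 of 12 in both, where 8 had an unadjusted edgeR p under 0.05 and DESeq2 called 1. Their sum ran from 2.86 to 21.9 nRPKM in crushed DLKi, 13.4 to 540 in uncrushed DLKi, 1.38 to 18.5 in crushed vehicle and 2.03 to 239 in uncrushed vehicle retinas.

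The inhibitor comparison was not used to choose the genes, although its libraries are also those behind the choice, which named loss after crush and no treatment. By size of fall the 8 ranked between 2 and 12 with vehicle and between 6 and 29 with DLKi, where lens genes also ranked high. As far as losses with vehicle weighed in the choice, low crushed vehicle values would favour positive differences here and between the crush changes. The size of this was not tested. In crushed retinas, 0 of 8 genes differed between DLKi and vehicle at an adjusted p of 0.05 or less in edgeR, where 0.505% of all genes did. At an unadjusted p under 0.05 there were 4, Irx4, Htr1b, Trarg1 and Rasgrp2, all higher with DLKi, where 13.7% of all genes passed and 6.51% were higher. DESeq2 called 1 of 8, Irx4, beside 1.89% of all genes, and limma on log2 nRPKM called 0, beside 0.48%. The median of the 8 was 0.35 on the log2 scale, beside 0.008 over all genes.

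Irx4 averaged 0.705 ± 0.141 nRPKM in crushed DLKi retinas and 0.307 ± 0.198 nRPKM in crushed vehicle retinas (SD, n = 5 and n = 3), a log2 difference of 1.15 with a 95% interval of 0.53 to 1.77 and an edgeR adjusted p of 0.0926. The DLKi range, 0.534 to 0.910, touched the vehicle range at crushed vehicle replicate 2, which read 0.535 where the other 2 read 0.189 and 0.196. Without that replicate the difference was 1.87 and the edgeR adjusted p was 0.00817, and over all libraries left out in turn the adjusted p ran from 0.00817 to 0.39. DESeq2 gave an adjusted p of 0.00374. For this gene the call therefore depended on the tool and on 1 library. In the titles that library and uncrushed vehicle replicate 3 carry sample numbers apart from the run of the other 14. Without both, the difference was 1.87 with an adjusted p of 0.009 in edgeR, and what sets the numbers apart is not stated.

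Htr1b averaged 1.37 ± 0.303 nRPKM in crushed DLKi retinas and 0.706 ± 0.163 nRPKM in crushed vehicle retinas (SD, n = 5 and n = 3), and every DLKi value exceeded every vehicle value. The log2 difference was 0.93 with a 95% interval of 0.14 to 1.72 and an edgeR adjusted p of 0.28. Trarg1 differed by 0.52 (interval 0.08 to 0.95, adjusted p = 0.274 in edgeR) and Rasgrp2 by 0.36 (interval 0.06 to 0.65, adjusted p = 0.273 in edgeR). The intervals of these 3 exclude 0 before adjustment over all genes, and none was called after it.

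Itpka differed by 0.34 between crushed DLKi and crushed vehicle retinas (interval -0.37 to 1.04, edgeR adjusted p = 0.68). Ano3 differed by -0.05 (interval -0.35 to 0.26, edgeR adjusted p = 0.909), the narrowest interval among the 4 genes not past an unadjusted 0.05. The intervals of Hapln1, -0.59 to 0.59, and Ppp1r1c, -1.01 to 1.15, still allowed changes of either sign, and Ppp1r1c had 0 to 20 reads per crushed library.

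**Figure D3:**
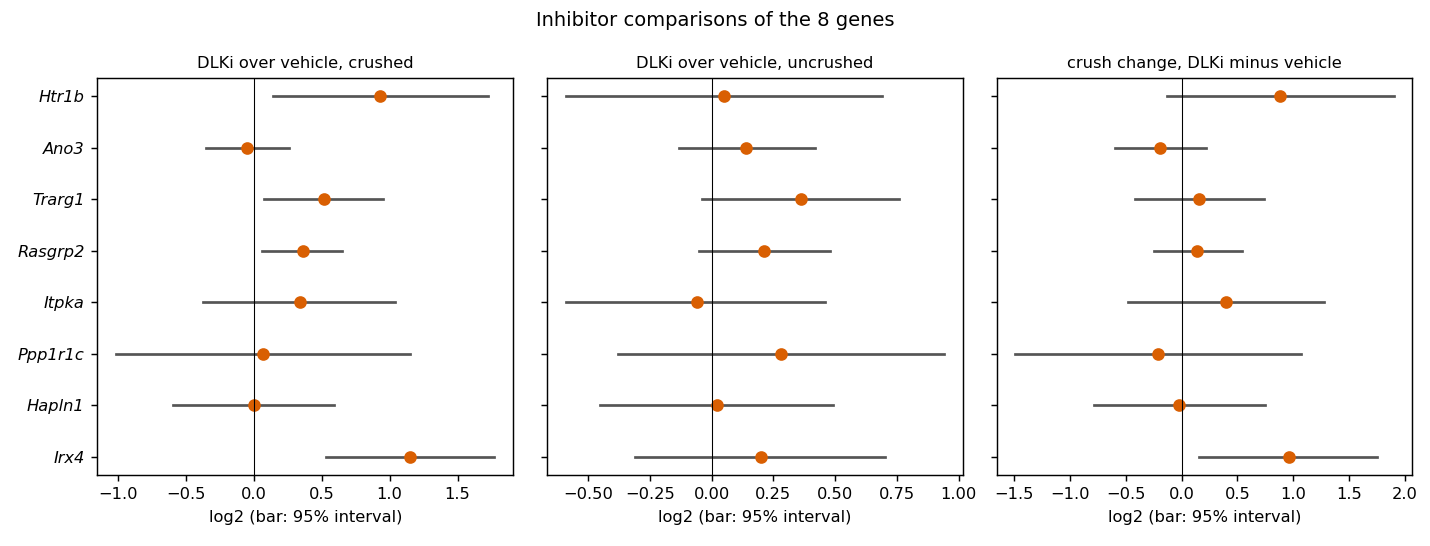
Log2 difference (x axis) with its 95% interval for the 8 genes in 3 comparisons, DLKi over vehicle in crushed retinas, DLKi over vehicle in uncrushed retinas, and the crush change with DLKi minus that with vehicle. In crushed retinas the intervals of Irx4, Htr1b, Trarg1 and Rasgrp2 lie above 0, and in uncrushed retinas all 8 intervals include 0.

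In uncrushed retinas the inhibitor comparison again called 0 of 8 genes in edgeR, where 0.629% of all genes were called, and 0 of 8 had an unadjusted p under 0.05, where 17.3% of all genes did. DESeq2 and limma called 0 as well. The differences, DLKi over vehicle, ran from -0.06 for Itpka to 0.36 for Trarg1 (interval -0.04 to 0.76), with a median of 0.17 beside 0.007 over all genes. Uncrushed vehicle replicate 1, the library of lowest depth at 22.35 M counts, gave the lowest value of its group for all 8 genes. Its pigment epithelium markers summed to 251 nRPKM, against 83.4 and 44.0 nRPKM in the other 2 uncrushed vehicle retinas, and the part of that tissue or of depth in its low values was not tested.

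The difference between the crush changes, DLKi minus vehicle, was tested directly as an interaction. It called 0 of 8 genes in edgeR, where 0.0103% of all genes were called, and 0 in DESeq2 and limma. An unadjusted p under 0.05, found for 1.54% of all genes, was found for 1 of the 8, Irx4, with a difference of 0.96 on the log2 scale (interval 0.16 to 1.75, unadjusted p = 0.021, edgeR adjusted p = 1). Without crushed vehicle replicate 2 the Irx4 difference was 1.68, with an edgeR adjusted p of 0.301. Htr1b had 0.88 (interval -0.13 to 1.90, edgeR adjusted p = 1), and 0.46 when the 3 lens-rich libraries were left out. The other 6 lay between -0.21 for Ppp1r1c and 0.40 for Itpka.

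Ganglion cell markers were compared in the same way. In crushed retinas 3 of 17 were called higher with DLKi than with vehicle in edgeR (0.129% of all genes were), all of them transcription factors. Pou4f1 differed by 1.39 ± 0.23 (SE, edgeR adjusted p = 0.0108), Pou4f2 by 1.37 ± 0.27 (adjusted p = 0.0277) and Isl2 by 1.37 ± 0.19 (adjusted p = 0.0032). Pou4f3 and Ebf3, also transcription factors of the list, were not called. Pou4f3 changed after crush by -0.60 ± 0.25 with DLKi and -0.61 ± 0.34 with vehicle (SE), and Ebf3 by -0.13 ± 0.12 and -0.10 ± 0.16. The difference of crush changes was called for 0 of the 17 in this fit. The neurofilament gene Nefh changed after crush by -1.47 ± 0.13 with DLKi and -1.46 ± 0.17 with vehicle (SE), and the RNA-binding protein gene Rbpms2 by -1.66 ± 0.13 with DLKi and -1.65 ± 0.17 with vehicle.

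Within the groups, the 8 genes varied together from library to library. Crushed vehicle replicate 2 held the highest value of its group for 7 of 8 genes, all except Ano3, and replicate 3 the lowest for 6. Uncrushed DLKi replicate 5 held the lowest value for 7 of 8. Over the 28 pairs of genes, the correlation of deviations from the group means was positive for all 28, from 0.19 to 0.91 with a median of 0.64 (Pearson, 16 libraries, given as a description). Depth and tissue makeup are shared by all genes of a library, and the same correlations were not computed among other genes.

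The mean of the 8 genes followed the mean of the 17 ganglion cell markers. On centred log2 CPM, the 8 genes averaged -0.70 in crushed vehicle replicate 2 and -1.38 and -1.90 in replicates 1 and 3, where the markers averaged -0.38, -0.74 and -1.01. Over the 8 crushed retinas the correlation was 0.96 (Pearson) and 0.74 (Spearman), and 0.52 by Pearson without the 2 libraries farthest from the median marker level, crushed vehicle replicates 1 and 3, on which it largely rested. Over the 8 uncrushed retinas it was 0.93 and 0.83, and 0.81 without 2 such libraries. Among the single genes, deviations from group means correlated with those of the markers most for Trarg1 (0.96) and least for Ano3 (0.64), over 16 libraries.

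**Figure D4:**
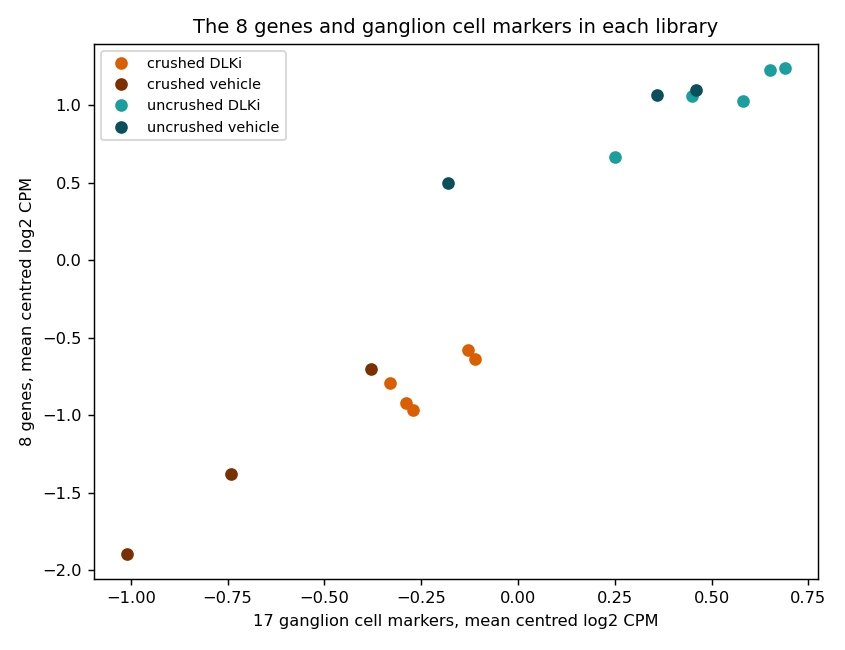
Mean centred log2 CPM of the 8 genes (y axis) against that of 17 ganglion cell markers (x axis), with 1 point per library and 4 groups by colour. Crushed vehicle retinas reach the lowest values of both, with -1.90 and -1.01 in replicate 3, and all crushed retinas lie below all uncrushed retinas on the y axis.

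The genes whose level across the 16 libraries was most like the mean of the 8 were Nefh (Pearson r = 0.991), Chrna6 (0.984), Rbpms2 (0.983), Dpp10 (0.983), Pvalb (0.983), Cdk14 (0.982), Sptssb (0.981) and Kcnip4 (0.980), out of 13778 genes searched. The search kept genes averaging 1 CPM or more and left out the 8, unmatched entries and Gm, Rik or LOC names. The difference between crushed and uncrushed retinas enters this measure. By deviations from the group means the first were Kcnip4 (0.952), Cplx1 (0.948), Nefh (0.944), Pou4f1 (0.944) and Cpne4 (0.943). Nefh, Chrna6, Rbpms2 and Pou4f1 are also in the marker list. Chrna6 encodes a nicotinic acetylcholine receptor subunit, Kcnip4 a potassium channel interacting protein and Pvalb the calcium buffer parvalbumin.

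Relatives and pathway partners of the 8 genes were examined next. Of the 90 listed, 82 passed the filter, and their changes are given on the log2 scale, crushed over uncrushed, ± SE. With DLKi, 1 was higher and 9 were lower after crush (12.2%, against 5.33% of all genes), and with vehicle 2 were higher and 7 lower (11%, against 2.63%). In crushed retinas 1 was called between DLKi and vehicle, and in uncrushed retinas and in the difference of crush changes 0 were in edgeR. At an unadjusted edgeR p under 0.05 there were 15, 9 and 3 of 82 in these 3 comparisons, beside 13.7%, 17.3% and 1.54% of all genes. DESeq2 called 4, 2 and 0, beside 1.89%, 2.89% and 0.0258% of all genes.

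Among receptors, 10 of 14 listed serotonin receptor and transporter genes passed the filter. Htr1d, the closest relative of Htr1b, fell by 0.90 ± 0.14 with DLKi (SE, edgeR adjusted p = 0.000564) and by 0.94 ± 0.19 with vehicle (adjusted p = 0.00769). Htr1a measured -0.16 ± 0.20 with DLKi and 0.02 ± 0.27 with vehicle, and was not called, and Htr1f did not pass the filter. Htr5b measured -0.62 ± 0.30 with DLKi (adjusted p = 0.374) and fell by 2.46 ± 0.53 with vehicle (adjusted p = 0.0152), at levels of 0.138 and 0.212 nRPKM in crushed and uncrushed DLKi retinas and 0.0287 and 0.182 nRPKM in crushed and uncrushed vehicle retinas. The difference between those changes was 1.84 ± 0.63 and was not called.

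Of 8 anoctamins that passed, Ano4 measured 0.13 ± 0.10 with DLKi and was called higher with vehicle (0.50 ± 0.12, edgeR adjusted p = 0.0366). Ano5 and Ano6 were not called with either treatment. The call of Ano4 was lost when any 1 of 8 libraries was left out, among them all vehicle libraries except crushed replicate 3 and uncrushed replicate 3, with adjusted p between 0.0504 and 0.176. Among the dispanin relatives of Trarg1 and GLUT4 trafficking genes, Prrt2, a presynaptic protein gene, fell by 0.60 ± 0.09 with DLKi (adjusted p = 0.000453) and 0.56 ± 0.12 with vehicle (adjusted p = 0.0125). Prrt1 measured -0.11 ± 0.07 with DLKi and 0.02 ± 0.09 with vehicle, and Slc2a4, the gene of GLUT4 itself, measured -0.09 ± 0.20 and 0.14 ± 0.25.

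In calcium and Rap signalling, Rasgrp1, Rasgrp3 and Rasgrp4 were not called, with changes between -0.19 and 0.07 with DLKi and between -0.20 and 0.02 with vehicle. Rapgef4, a cyclic AMP-regulated exchange factor for Rap1, fell by 0.52 ± 0.07 with DLKi (edgeR adjusted p = 0.000121) and 0.57 ± 0.09 with vehicle (adjusted p = 0.000976). Rap1gap, which switches Rap1 off, fell by 0.36 ± 0.10 with DLKi (adjusted p = 0.0418), a call lost when any 1 of 10 libraries was left out, and measured -0.27 ± 0.13 with vehicle. The kinase relatives Itpkb and Itpkc measured 0.10 ± 0.08 and 0.03 ± 0.08 with DLKi and 0.19 ± 0.10 and 0.13 ± 0.11 with vehicle, and were not called. Plcb1, a phospholipase that makes inositol trisphosphate, fell by 0.58 ± 0.14 with DLKi (adjusted p = 0.017) and measured -0.54 ± 0.18 with vehicle (adjusted p = 0.175).

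Of the 10 protein phosphatase 1 subunits and inhibitors that passed, 0 were called after crush in edgeR, DESeq2 or limma, and 0 had an unadjusted edgeR p under 0.05. Of all genes, edgeR called 5.33% with DLKi and 2.63% with vehicle, DESeq2 6.79% and 3.71%, and limma 4.7% and 2.46%. An unadjusted edgeR p under 0.05 was found for 14.4% and 10.4%. Over 10 genes the counts cannot be told apart from these shares. Ppp1r1a measured -0.06 ± 0.10 with DLKi and -0.07 ± 0.13 with vehicle, and Ppp1r1b, the gene of the dopamine-regulated inhibitor DARPP-32, -0.02 ± 0.16 and -0.10 ± 0.20. Of 11 hyaluronan and perineuronal net genes, Hapln4 fell by 0.82 ± 0.13 with DLKi (adjusted p = 0.000675) and 0.85 ± 0.17 with vehicle (adjusted p = 0.00887). Bcan, the gene of the proteoglycan brevican, fell by 0.56 ± 0.11 with DLKi (adjusted p = 0.00341) and measured -0.52 ± 0.14 with vehicle (adjusted p = 0.0569). Cd44, a hyaluronan receptor gene, rose by 1.13 ± 0.19 with DLKi (adjusted p = 0.00101) and by 1.14 ± 0.24 with vehicle (adjusted p = 0.0139). Hapln2 and Hapln3 were not called.

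Of the 6 other Iroquois-type factors, 2 were called lower with DLKi and 2 with vehicle. Irx2 fell by 0.84 ± 0.22 with DLKi (edgeR adjusted p = 0.0307) and 1.43 ± 0.30 with vehicle (adjusted p = 0.0136). Irx1 measured -0.37 ± 0.27 with DLKi (adjusted p = 0.65) and fell by 2.00 ± 0.43 with vehicle (adjusted p = 0.0139). In crushed retinas Irx1 averaged 0.339 ± 0.0881 nRPKM with DLKi and 0.0882 ± 0.0624 nRPKM with vehicle (SD, n = 5 and n = 3), a log2 difference of 1.86 ± 0.40 (SE) with an edgeR adjusted p of 0.0435. The difference between the crush changes of Irx1 was 1.63 ± 0.51 and was not called. Irx6 fell by 0.55 ± 0.11 with DLKi (adjusted p = 0.00374) and measured -0.48 ± 0.14 with vehicle (adjusted p = 0.101), while Irx3 and Irx5 were not called.

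**Figure D5:**
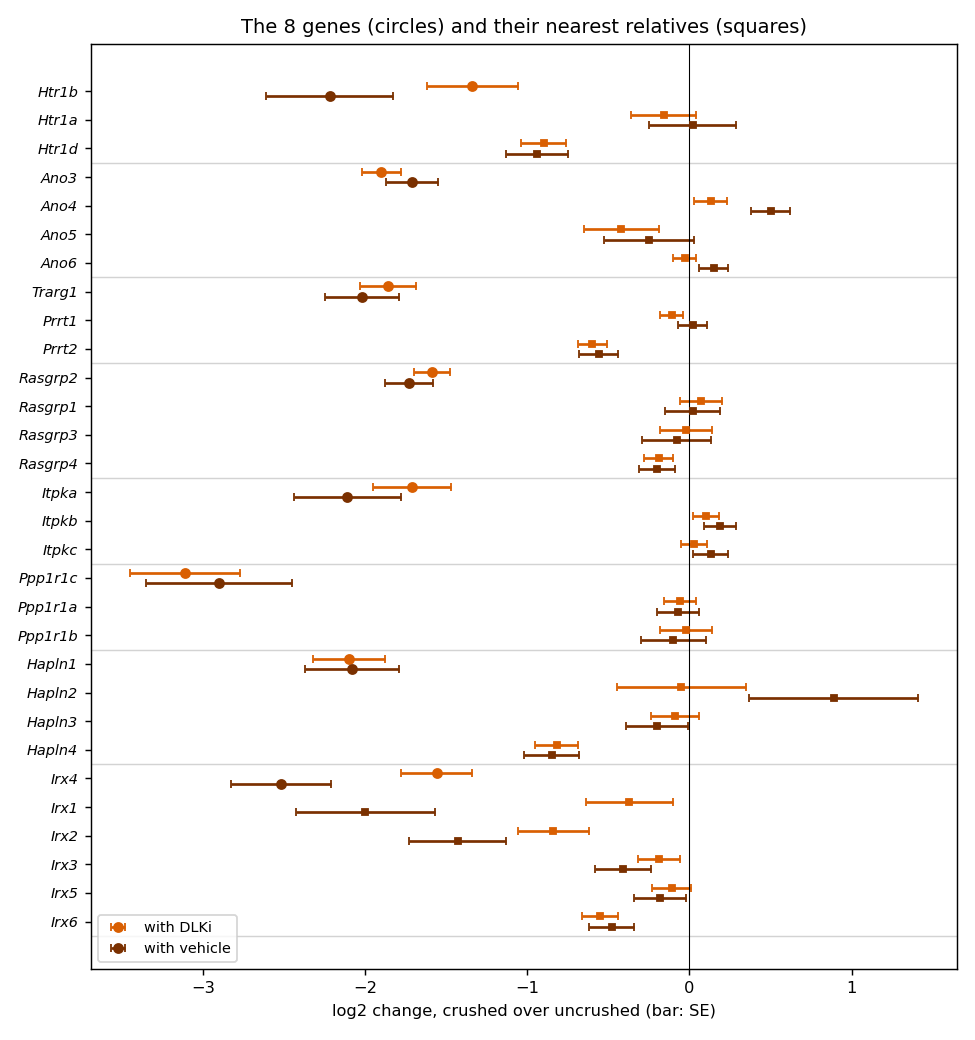
Log2 change, crushed over uncrushed (x axis), with its SE, for the 8 genes (circles) and their nearest family members that passed the filter (squares), with DLKi and with vehicle. Among the squares, Irx1 and Irx2 lie farthest left with vehicle, at -2.0 and -1.43, and Htr5b, at -2.46 with vehicle, is not plotted.

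Several of these calls rested on few libraries. Of the 9 relatives called after crush with vehicle, 8 lost the call when 1 particular library was left out, and Rapgef4 kept it, as did 7 of the 10 called with DLKi. The vehicle call was also lost for 8 of the 9, all but Rapgef4, without the 3 lens-rich libraries, and for 7, all but Rapgef4 and Cd44, with only the groups compared. Irx2 and Rap1gap lost the DLKi call without the lens-rich libraries and in limma, and Ano4 lost the vehicle call in limma. Irx1 lost its inhibitor call without the lens-rich libraries, with only the groups compared, and without the 2 shallowest vehicle libraries (edgeR adjusted p = 0.174). Leaving out those 2 shallowest libraries also lost the vehicle calls of Ano4, Cd44 and Htr5b. Without the 2 vehicle libraries of separate sample numbers the vehicle call was lost for 5, Ano4, Cd44, Hapln4, Htr1d and Prrt2. Without 1 library, the vehicle call was lost for Htr1d (uncrushed vehicle replicate 2 or 3, adjusted p 0.0556 and 0.0542), Htr5b (replicate 1 of crushed vehicle or 2 of uncrushed vehicle, 0.0769 and 0.0568), and Irx2 and Prrt2 (replicate 1 of crushed vehicle, 2 or 3 of uncrushed vehicle, 0.0697 to 0.0711 for Irx2 and 0.0604 to 0.0662 for Prrt2). It was also lost for Hapln4 (replicate 3 of crushed vehicle, 2 or 3 of uncrushed vehicle, 0.0512 to 0.0608), Cd44 (replicate 1 of crushed vehicle, 1 or 3 of uncrushed vehicle, 0.0534 to 0.0945) and Irx1 (replicate 1 or 3 of crushed vehicle, 2 or 3 of uncrushed vehicle, 0.0571 to 0.0865). The DLKi call was lost for Plcb1 without crushed DLKi replicate 1 or uncrushed DLKi replicate 2 or 4 (0.0508 to 0.0561), and for Irx2 without crushed DLKi replicate 1, 2 or 4 or any uncrushed DLKi replicate except 5 (0.0527 to 0.093). The inhibitor call of Irx1 in crushed retinas was lost when any 1 of 11 libraries was left out, with adjusted p up to 0.231 without crushed vehicle replicate 3.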

How the data were processed

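Per the labels' protocols, poly(A) RNA was prepared with a TruSeq RNA v2 kit, which does not mark strand, from 0.5 µg of total RNA and sequenced as single 50-base reads on a HiSeq4000. GSNAP and GRCm38 are named in the submitters' processing notes. Per the file headers, the authors deposited a count of reads aligning uniquely to each gene model and an nRPKM value, an RPKM adjusted by a size factor. Of 36528 gene entries, 31049 matched a symbol, and the unmatched entries held 1.098% to 1.216% of the counts.

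From the deposited counts, edgeR 4.0.16 (R 4.3.3) was run with TMM factors (0.9729 to 1.024), its default low-count filter over the 4 groups (19391 genes kept) and the quasi-likelihood test, two-sided, on all 16 libraries in 1 model without covariates (12 residual degrees of freedom, prior 5.27). P-values were adjusted by Benjamini-Hochberg over all genes tested in each comparison and called at 0.05 or less. Each edgeR SE is the size of the log2 change divided by the square root of its F statistic. Each 95% interval is the log2 change ± 2.107 SE, with 1 multiplier for all genes from the median prior. SE and intervals are thus approximate, most of all for genes of few reads such as Ppp1r1c. DESeq2 1.42.0, limma 3.58.1 on log2(nRPKM + 0.1), which understates changes of low genes, other scaling, no low-count filter, only the groups compared, and left-out libraries were the alternatives. Chosen after seeing the data were a fit leaving out 3 lens-rich libraries, another leaving out 2 vehicle libraries of separate sample numbers, and a block on consecutive library numbers. The fit was tested on simulated data. Correlations used log2 CPM with a prior count of 2.

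The 8 genes, the lists of relatives and the marker lists were chosen with earlier results of these data known. All 8 were named, as were relatives called in any comparison, the nearest family members whether called or not, and the 8 and 5 genes most like the mean of the 8. Replicates were numbered in accession order. Library numbers in the titles run in consecutive crushed and uncrushed retinas of 1 treatment, which the labels do not call 1 mouse. Upstream windows and their build are RefSeq's, and gene positions and exons are those of the GRCm38 annotation.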

Additional observations from a re-analysis of the deposited data

How the results depend on the processing

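The direction of the 8 genes after crush was the same under every alternative run, with both treatments. For the inhibitor comparisons, no result of the 8 genes crossed the threshold except Irx4 in crushed retinas, called in DESeq2 (1.17, adjusted p = 0.00374), without crushed vehicle replicate 2 (1.873, adjusted p = 0.00817) and without the 2 vehicle libraries of separate sample numbers (1.866, adjusted p = 0.009). Counts of genes called depended on the processing, and the cause was not tested. After crush with DLKi, 1034 genes were called, 620 without the 3 lens-rich libraries, and 748 to 1258 when libraries were left out in turn. The share of calls that were higher was 61.7%, and 51.3% with only the groups compared or 52.8% without the 2 shallowest vehicle libraries. After crush with vehicle, 510 were called (67.3% higher), 281 with only the groups compared (80.8% higher), 389 without the 2 shallowest vehicle libraries (53.5% higher), 263 without the lens-rich libraries, and 276 to 506 with libraries left out in turn. For DLKi over vehicle in crushed retinas, 98 were called (25.5% higher), 367 in DESeq2 (42% higher), 45 with only the groups compared, 53 without the 2 shallowest, and 22 to 144 with libraries left out in turn. In uncrushed retinas the count was 122 (41.8% higher), 560 in DESeq2 (52.3% higher), 3 with only the groups compared, 11 without the 2 shallowest, 7 without the lens-rich libraries and 17 to 205 with libraries left out. The difference of crush changes had 2 calls, 5 in DESeq2, 1 without the 2 shallowest, 0 in edgeR without the lens-rich libraries, and 1 to 2 with libraries left out. Without the 2 vehicle libraries of separate sample numbers, 258 genes were called after crush with vehicle, 38 between DLKi and vehicle in crushed retinas and 1 in the difference of crush changes. Changes of low genes after crush were smaller on log2(nRPKM + 0.1), at -1.63 with DLKi and -1.51 with vehicle for Ppp1r1c, and -1.46 and -1.49 for Hapln1.

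Differences near 0 changed sign. For DLKi over vehicle in crushed retinas, Ppp1r1c gave -0.419 without the 2 shallowest vehicle libraries, and Hapln1 gave 0.003 with only the groups compared and 0.043 in limma. In uncrushed retinas, Htr1b gave -0.155 without the 2 shallowest and -0.018 in limma, and Hapln1 -0.106 without the 2 shallowest. In the difference of crush changes, Hapln1 gave 0.029 in limma and 0.019 under the block described next. Without the 2 vehicle libraries of separate sample numbers, Hapln1 gave 0.448 in crushed retinas, Itpka 0.079 in uncrushed retinas, and Ppp1r1c and Hapln1 1.342 and 0.407 in the difference of crush changes. With libraries left out in turn, the values in crushed retinas ran from -0.417 to 1.595 for Ppp1r1c, -0.228 to 0.455 for Hapln1 and -0.118 to 0.037 for Ano3. In uncrushed retinas they ran from -0.155 to 0.234 for Htr1b, -0.26 to 0.079 for Itpka and -0.106 to 0.141 for Hapln1. The differences of crush changes ran from -0.697 to 1.322 for Ppp1r1c, -0.249 to 0.441 for Hapln1 and -0.069 to 0.492 for Trarg1. Counts of 0 to 26 reads per crushed library limit Ppp1r1c and Itpka. 

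The labels name no mouse for any retina, but consecutive library numbers give 8 crushed and uncrushed pairs. The deviations of paired libraries from their group means correlated at 0.04 to 0.44 across genes, over 0.1 in 7 of 8 pairs, and 14 of 16 libraries correlated best with their own partner, a hint from the data and not from the design. With the pairs as a replicate block, edgeR called 1234 genes after crush with vehicle, 2080 with DLKi and 3 in the difference of crush changes. All 9 and 10 relatives called after crush with vehicle and with DLKi were called under the block too, among 14 and 14, and 0 of the 8 genes were called in the difference of crush changes. Among 17 ganglion cell markers, the difference was called for 1 under the block, Pou4f1. The comparisons of DLKi with vehicle lie between pairs and could not be fitted with the block.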
